A study of Mus musculus with 2 samples.

Results

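Myosin heavy chains are the motor subunits of conventional myosins, and 8 of their genes plus the antisense RNA gene Myhas are described here in CT26, a mouse colon carcinoma cell line. These 9 members are 9 of the 54532 genes in the deposited expression table and were found by gene symbol. They were chosen by their measured levels in these same libraries, so their levels and ratios between libraries are a description and no test of them is given. One culture carried lentiviral mouse Oct4 together with human SOX2 and is labelled dedifferentiated. The control, labelled wild type, carried a lentivirus whose vector was empty. Each culture was grown for 4 days in RPMI 1640 with serum and gave 1 library, so no difference below has a replicate check. The labels give neither the promoter of the vectors nor whether a clone or a mixed population was used.

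Conventional, or class II, myosins pair 2 heavy chains with light chains and pull on actin filaments. The fast, developmental and extraocular heavy chains of skeletal muscle are encoded side by side in 1 gene cluster. Fast fibre types are named by which of them they use. Myh3 is the embryonic form, Myh8 the perinatal form and Myh13 the extraocular form. Myh2 is the fast IIa form, Myh1 the fast IIx form and Myh4 the fast IIb form. The nonmuscle forms Myh9, Myh10 and Myh14 are the heavy chains of nonmuscle myosin IIA, IIB and IIC, which drive contraction of the cell cortex, migration and division in most cell types. Myhas is transcribed against the direction of the muscle genes.

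Gene-assigned reads came to 32262408 in the control and 31521115 in the library with both factors, called the 2-factor library. Levels are in FPKM, which divides a gene's fragments by its length and by library depth, and read numbers were recovered from their steps. Pou5f1, the gene for Oct4, had 0 reads in the control and 12406 with both factors, matching the labels. Of 10 colon epithelial marker genes, 3 reached 1 FPKM in either library: Krt18 at 15.2 and 11.3 FPKM, Krt20 at 14.9 and 28.3 FPKM and Lgals4 at 1.89 and 1.87 FPKM, the control first. The epithelial adhesion gene Cdh1 had 0 reads in each library and Epcam had 1 and 2, so these defining epithelial markers were at or near 0 in a line labelled as colon cancer.

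The muscle heavy chain genes of the cluster lie within 293 kb on chromosome 11 of GRCm38, from 67078300 to 67371586, in the order Myh3, Myh2, Myh1, Myh4, Myh8 and Myh13, all on the plus strand. The heavy chains of this cluster are close copies. Over the aligned coding bases of their principal GENCODE M21 transcripts, Myh1 was 91.2% identical to Myh2, 90.45% to Myh4, 89.8% to Myh8, 82.2% to Myh3 and 81.6% to Myh13. Its identity to Myh9, Myh10 and Myh14 was 75.6%, 74.7% and 75.5%. The coding stretch below is the 90-base window within 1 exon where Myh1 and Myh2 differ most. It is shown because reads inside it can be told apart between Myh1 and Myh2. Capitals mark the 27 positions at which the 3 genes are not all alike, and Myh2 differs from Myh1 at 26 of them and Myh4 at 4. The window lies at chr11:67201984-67202073 in exon 3 of Myh1, chr11:67173218-67173307 in exon 3 of Myh2 and chr11:67240726-67240815 in exon 2 of Myh4.
Myh1: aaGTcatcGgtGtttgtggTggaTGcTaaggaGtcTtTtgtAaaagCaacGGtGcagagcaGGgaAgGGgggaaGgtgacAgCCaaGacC
Myh2: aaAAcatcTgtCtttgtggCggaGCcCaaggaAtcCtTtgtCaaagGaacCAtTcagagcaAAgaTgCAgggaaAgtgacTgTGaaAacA
Myh4: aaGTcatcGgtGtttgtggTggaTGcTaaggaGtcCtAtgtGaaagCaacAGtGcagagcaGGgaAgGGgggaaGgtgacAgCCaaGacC

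At the other extreme is a window near the end of the coding sequence in which Myh1 and Myh2 are identical base for base, shown because reads inside it cannot be told apart between them. It lies at chr11:67224377-67224466 in exon 40 of Myh1, chr11:67197296-67197385 in exon 40 of Myh2 and chr11:67260248-67260337 in exon 39 of Myh4. Myh4 differs at 4 positions, in capitals.
Myh1 and Myh2: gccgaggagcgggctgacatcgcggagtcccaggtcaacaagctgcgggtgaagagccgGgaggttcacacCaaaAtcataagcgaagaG
Myh4: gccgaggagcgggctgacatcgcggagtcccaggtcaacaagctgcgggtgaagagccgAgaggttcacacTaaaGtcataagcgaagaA

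Windows of this kind are a minority of each transcript. Of all 100-base windows of the Myh1 transcript, 9.73% occur exactly in a transcript of another gene and 7.59% in Myh2. With 50-base windows these shares are 26.7% and 19.7%, and with 150-base windows 2.495% and 2.06%. For Myh9 the share in other genes is 1.12% at 50 bases and 0.314% at 100 bases, and for Myh14 it is 0% at each length. The sources used here give neither the read length nor how reads matching several genes were handled. Counts of Myh1, Myh2, Myh4 and Myh8 are therefore less certain than those of Myh9 and Myh14.

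Myh1 (ENSMUSG00000056328, chromosome 11 from 67200052 to 67224575) was the member that separated the libraries most. It had 0 reads in the control, where a floor of 3 reads is 0.0148 FPKM and the upper 95% Poisson limit is 0.0182 FPKM. With Oct4 and SOX2 it had 6541 reads or 32.3 FPKM (95% Poisson interval 31.5 to 33.1). The fold is 2184 with that floor in place of 0, and the exact 95% counting interval starts lower, at 1776. By FPKM, Myh1 took rank 1693 of all genes in the 2-factor library. Floors and intervals here and below cover counting error only.

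Myh2 (ENSMUSG00000033196, 67171027 to 67197517) also had 0 reads in the control, and had 282 reads or 1.24 FPKM (1.10 to 1.39) with both factors. With the floor of 3 reads in place of 0 this is 94.2-fold higher, with a counting interval from 76.1. Its per-length level was 26.1 times below that of Myh1 in the same library. Myh4 (ENSMUSG00000057003, 67238029 to 67260446) had 0 and 10 reads, the latter 0.0522 FPKM (0.0250 to 0.0959), 3.34-fold higher by the floor with an interval from 2.245. These 3 adjacent adult fast-fibre genes were thus at 0 in the control library and above 0 in the other.

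The developmental and extraocular forms had hardly any reads. Myh3 (ENSMUSG00000020908, 67078300 to 67102291) had 8 reads in the control and 12 with both factors, 0.0414 and 0.0622 FPKM, a ratio of 1.503 whose interval of 0.565 to 4.24 spans 1. Myh8 (ENSMUSG00000055775, 67277124 to 67308634) had 0 reads in each library, where the floor of 3 reads is 0.00798 and 0.00800 FPKM. Myh13, the last gene of the cluster and no member, had 11 reads in the control and 3 in the other library, 0.0558 and 0.0152 FPKM, 3.66-fold lower with an interval of 0.967 to 20.4. Neither Myh3 nor Myh13 differed beyond counting error.

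In the 2-factor library the 6 heavy chain genes of the cluster held 6848 reads, against 19 in the control. Myh1 took 95.5% of the 6848 (95% exact binomial interval 0.995 percentage points wide), Myh2 4.12% (3.66 to 4.62), Myh3 0.175% (0.0906 to 0.306) and Myh4 0.146% (0.0701 to 0.268). By FPKM, which removes gene length, Myh1 took 95.9% and Myh2 3.68%. Exact 100-base windows shared with Myh1 made up 7.59% of the Myh2 transcript, 2.63% of Myh8 and 2.25% of Myh4. Their part in the Myh2 and Myh4 reads was not tested.

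**Figure D1:**
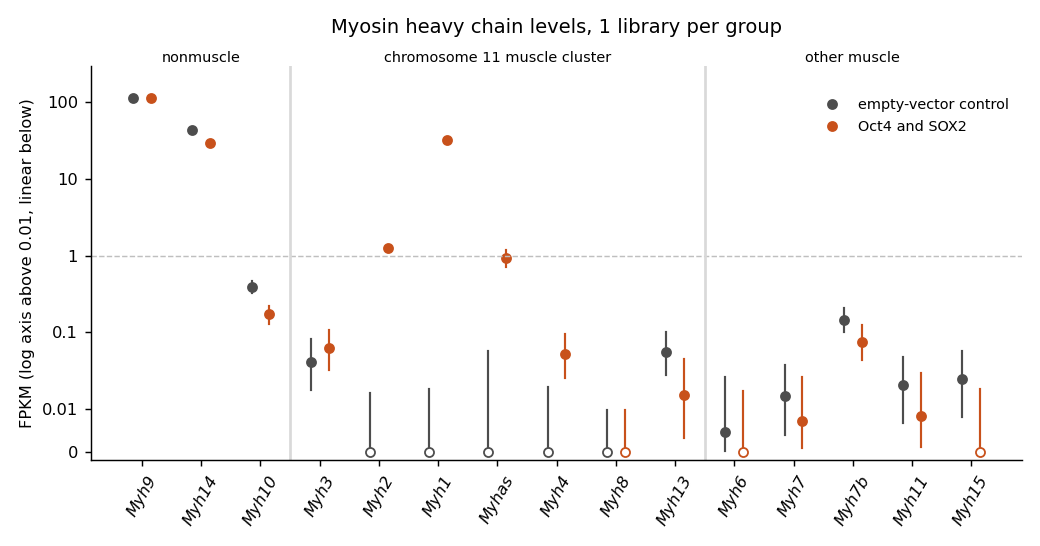
FPKM of the 9 members and 6 other class II heavy chain genes in the control library (grey) and the 2-factor library (orange). Points are single libraries, lines are 95% Poisson intervals of the recovered reads, open points are 0, and the dashed line is 1 FPKM; Myh1 stands at 0 and 32.3 FPKM, while Myh9 stands at 115 FPKM in each.

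Myhas (ENSMUSG00000085348, 67211256 to 67237573, minus strand) starts between Myh1 and Myh4 and runs back across 13320 bases of the Myh1 gene. It had 0 reads in the control and 60 with both factors, 0.929 FPKM (0.709 to 1.196), 20.04-fold higher by the floor with an interval from 15.8. Of its 2027 exon bases, 515 or 25.4% are also Myh1 exon bases. The sources used here do not say whether counting used strand, so reads on those bases cannot be told apart between the 2 genes. Myhas and Myh4 share 0 exon bases.

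The other genes around the cluster either had reads in each library or in neither. Of 7 protein-coding genes within 300 kb that encode no myosin, Pirt, Tmem238l and Glp2r had 0 reads in each library. On the side of Myh3, Sco1, a copper chaperone gene for cytochrome c oxidase, stood at 6.88 FPKM in the control and 5.14 with both factors, 1.34-fold lower (1.21 to 1.48). Adprm stood at 4.63 and 4.41 FPKM, a ratio of 0.954 (0.806 to 1.13). Tmem220 stood at 1.54 and 2.24 FPKM, 1.45-fold higher (1.09 to 1.95). On the far side, Gas7 had 102 reads in the control and 152 with both factors, 0.282 and 0.421 FPKM, 1.49-fold higher (1.15 to 1.94). Expressed neighbours therefore had reads in each library, whereas Myh2, Myh1, Myhas and Myh4 had none in the control.

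**Figure D2:**
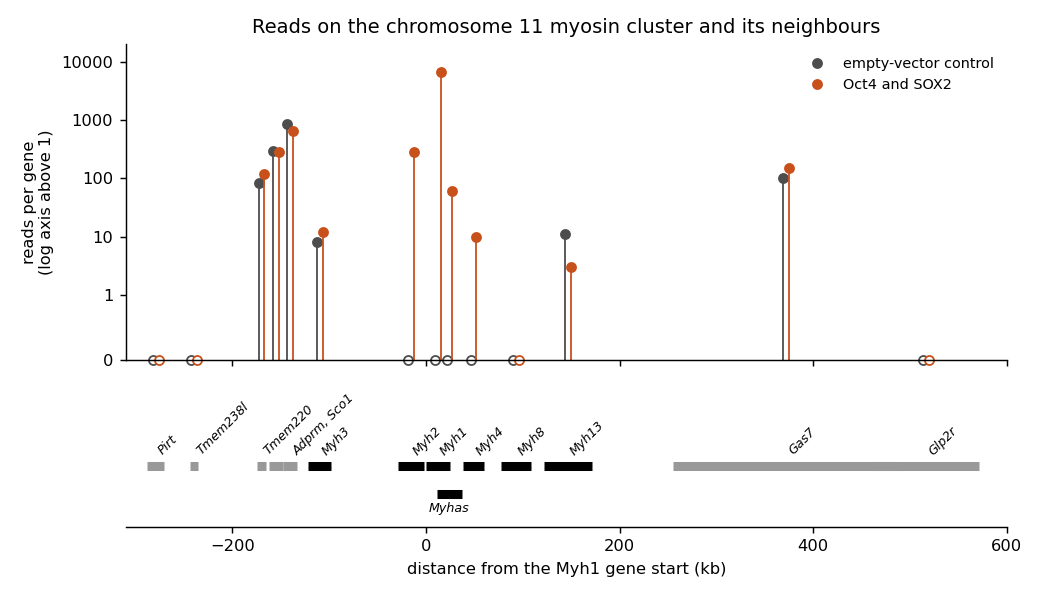
Reads per gene (upper panel, log axis above 1) for the protein-coding genes and Myhas around the myosin cluster, with gene positions below in kb from the Myh1 start; grey is control, orange is Oct4 and SOX2, open points are 0. Myh2, Myh1, Myhas and Myh4 are at 0 in the control and at 282, 6541, 60 and 10 reads with both factors.

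Having 0 control reads was common, since it held for 31671 genes, and 2669 of these had at least 1 read with both factors. The median of those 2669 was 2 reads, and 10 of them reached 100. Ordered by reads in the 2-factor library, Myh1 came right after Pou5f1, Myh2 was at rank 5, Myhas at rank 18 and Myh4 at rank 160. The genes most like Myh1 by this measure, over 2 libraries, were Kpna7 with 1315 reads, the processed pseudogene Gm43427 with 579, Myh2 with 282, Gm17732 with 222 and the lincRNA Gm47524 with 212.

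The promoters of Myh1, Myh2, Myh4 and Myh8 are shown because these neighbours differ so much in reads, from 6541 to 0. They come from RefSeq on GRCm38.p6, where all 9 members had an entry, and the bases shown lie before both the RefSeq start and the gene start in the deposited table. Each is on the plus strand, at chr11:67199852-67200051 for Myh1, chr11:67170777-67171026 for Myh2, chr11:67237562-67237811 for Myh4 and chr11:67276874-67277123 for Myh8. Capitals mark matches to the consensus of MEF2, a family of muscle transcription factors.
Myh1: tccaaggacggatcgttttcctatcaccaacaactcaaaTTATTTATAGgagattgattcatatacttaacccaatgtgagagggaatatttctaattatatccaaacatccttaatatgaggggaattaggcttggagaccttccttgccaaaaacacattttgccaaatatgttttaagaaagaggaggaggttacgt
Myh2: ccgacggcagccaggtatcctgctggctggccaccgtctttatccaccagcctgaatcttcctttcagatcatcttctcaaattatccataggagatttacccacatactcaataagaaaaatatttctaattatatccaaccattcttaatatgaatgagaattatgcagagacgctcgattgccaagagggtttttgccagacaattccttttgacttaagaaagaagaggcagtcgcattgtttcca
Myh4: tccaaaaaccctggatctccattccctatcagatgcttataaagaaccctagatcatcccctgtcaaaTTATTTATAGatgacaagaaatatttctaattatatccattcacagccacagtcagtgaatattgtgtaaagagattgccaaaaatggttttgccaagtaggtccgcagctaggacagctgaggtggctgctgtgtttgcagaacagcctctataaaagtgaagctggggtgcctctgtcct
Myh8: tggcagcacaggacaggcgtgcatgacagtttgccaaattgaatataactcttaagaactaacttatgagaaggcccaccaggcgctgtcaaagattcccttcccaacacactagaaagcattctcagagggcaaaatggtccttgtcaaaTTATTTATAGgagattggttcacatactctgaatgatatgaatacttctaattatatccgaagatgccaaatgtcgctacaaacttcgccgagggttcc

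Motifs were searched on both strands over the 250 bases before each RefSeq start. The MEF2 consensus matched once each in Myh1 (bases -211 to -202 from the start), Myh4 (-182 to -173) and Myh8 (-99 to -90), with the same 10 letters, and in none of Myh2, Myh3 and Myh13. It occurs in 2.92% of 32851 mouse promoters of that length. In the 2-factor library Myh1 had 6541 reads, Myh4 10 and Myh8 0, whereas Myh2, which lacks the match, had 282. Any link between match and reads was not tested. Around the MEF2 match Myh1 and Myh8 share a run of 22 bases. A further AT-rich run of 20 bases is shared by Myh1, Myh2 and Myh4. It reaches 21 bases between Myh1 and Myh2 and between Myh2 and Myh4. In Myh8, 14 bases of that run also occur without a difference.

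The octamer that Oct4 binds, ATGCAAAT, was in 0 of the 6 cluster promoters and is in 1.60% of all promoters. Of the SOX motifs, AACAATG matched in Myh2 at -11 to -5 (3.29% of all promoters) and AACAAAG in none of the 6 (5.03%). The E-box CANNTG, which myogenic factors bind, was in Myh3, Myh4, Myh8 and Myh13 but not in Myh1 or Myh2, and is in 66.2% of all promoters. A TATA box, TATAAA, lay at -32 to -27 in Myh1, -31 to -26 in Myh4 and -29 to -24 in Myh3, and a TATAAA on either strand is in 12.4% of all promoters. It can fall within the MEF2 consensus, as it does in Myh1, Myh4 and Myh8. A match is a string of letters, not evidence of binding, and these windows hold no distal element.

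Among the nonmuscle members, Myh9 (ENSMUSG00000022443, chromosome 15 from 77760587 to 77842175) was by far the most abundant and differed by less than counting error between libraries. It had 47338 reads in the control and 47224 with both factors, 114.7 and 114.6 FPKM. The ratio was 0.999 with a 95% counting interval of 0.987 to 1.01. Its log2 ratio ranged from -0.001 to 0.037 over other scalings and pseudocounts, so it has no stable sign. Myh9 held rank 364 of all genes by FPKM in the control and 352 with both factors.

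Myh14 (ENSMUSG00000030739, chromosome 7 from 44605803 to 44670843) stood at 43.3 FPKM (42.5 to 44.15) from 10051 reads in the control. With Oct4 and SOX2 it stood at 29.4 FPKM (28.7 to 30.1) from 6819 reads, 1.47-fold lower (1.43 to 1.52). The intervals do not overlap, yet the difference stays within 2-fold. Myh10 (ENSMUSG00000020900, chromosome 11 from 68691559 to 68816632) was close to silent, at 0.389 FPKM (0.325 to 0.463) from 130 reads and 0.171 FPKM (0.130 to 0.222) from 57 reads. It was 2.28-fold lower with both factors, and its interval of 1.65 to 3.17 includes 2. Nonmuscle myosin II transcripts of CT26 were thus those of Myh9 and Myh14, in the FPKM order Myh9, Myh14, Myh10 in each library.

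The mix of heavy chains differed accordingly. Summed over 14 heavy chain genes, the level was 159 FPKM in the control and 178 FPKM with both factors. Nonmuscle chains made up 99.8% of the control sum and 81.0% of the other. Muscle chains made up 0.194% and 18.97%, of which Myh1 alone was 18.1% of the sum with both factors. By that level Myh1 stood above Myh14 there, at 32.3 against 29.4 FPKM with intervals that do not overlap, and below Myh9. Within the nonmuscle sum Myh9 was 72.4% in the control and 79.5% with both factors, Myh14 was 27.3% and 20.4%, and the Myh9 to Myh14 ratio was 2.65 and 3.90. In RNA from whole cultures, many cells with little Myh1 and few cells with much of it cannot be told apart.

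**Figure D3:**
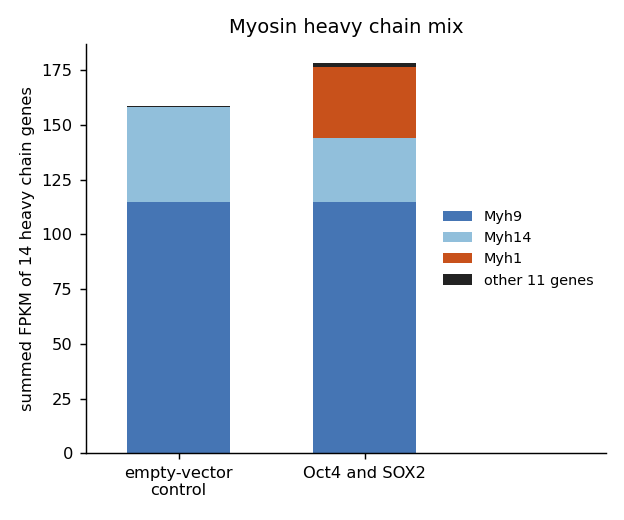
Stacked FPKM of Myh9, Myh14, Myh1 and the 11 other heavy chain genes in each library, 1 bar per library, without Myhas. The sum is 159 FPKM in the control and 178 FPKM with both factors, and Myh1 fills 32.3 FPKM of the second bar only.

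Differences were sorted by size, at least 2-fold on the log2(FPKM + 1) scale among the 12401 genes with at least 1 FPKM in 1 library. This scale understates the change of low genes. By that rule, which used the same values that chose the members, 4 of the 9 were measured and 2 were higher with both factors, Myh1 at a log2 ratio of 5.06 and Myh2 at 1.16. Over all measured genes 2.42% were higher. Of the members 0 were lower, against 1.85% of all genes, with Myh14 at -0.54 and Myh9 at 0.00. Just outside the rule lay Myhas, with a log2 ratio of 0.95 and 0.929 FPKM. Counting instead intervals wholly beyond 2-fold, among the 25530 genes with a read, 4 members were higher (Myh1, Myh2, Myhas and Myh4) and 0 lower, against 1.89% and 1.59% of those genes.

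**Figure D4:**
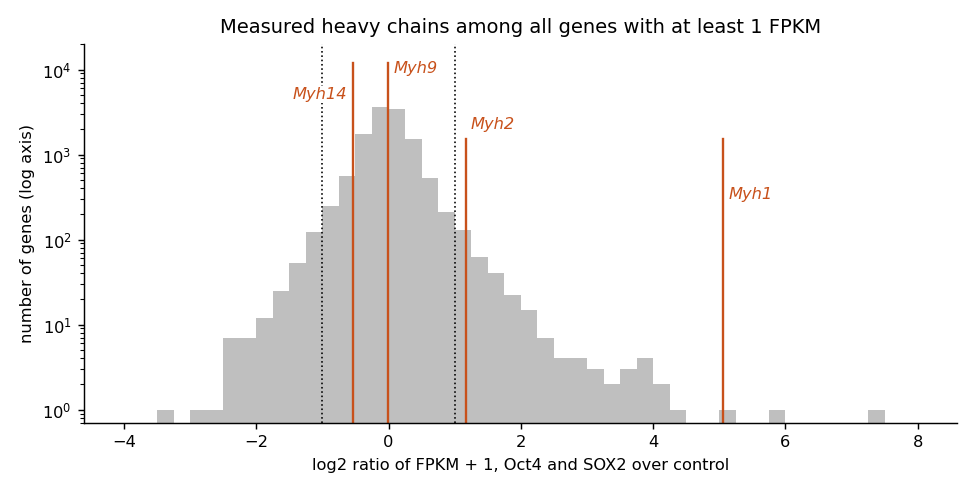
Number of genes (log axis) by log2 ratio of FPKM + 1, Oct4 and SOX2 over control, for the 12401 measured genes in bins of 0.25, with dotted lines at 2-fold and orange lines at the 4 measured members. Myh9 sits at 0.00, Myh14 at -0.54, Myh2 at 1.16 and Myh1 at 5.06.

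The remaining class II heavy chains had at most 31 reads in a library. The cardiac chains Myh6 and Myh7 had 1 and 4 reads in the control and 0 and 2 with both factors. The smooth muscle chain Myh11 had 5 and 2 reads, and Myh15 had 5 and 0. Myh7b had 31 and 16 reads, 0.146 and 0.0757 FPKM. All 5 lay below 1 FPKM, as did Myh13, and 0 of the 6 had an interval wholly beyond 2-fold. Of all genes with a read, 1.89% were higher and 1.59% lower by that measure. With 6 genes of few reads, 0 is near those shares.

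Few other sarcomere genes reached 1 FPKM. The list held 38 genes of the thin and thick filaments, the Z-disc and the calcium release apparatus. Of these, 13 had 0 reads in the control, 16 with both factors and 11 in both libraries, and 3 reached 1 FPKM in either library. Their summed level was 16.3 FPKM in the control and 10.2 FPKM with both factors. Tnnc1, the slow and cardiac troponin C gene, stood at 4.33 FPKM in the control (144 reads) and 1.24 FPKM with both factors (41 reads). It was 3.51-fold lower (2.46 to 5.09) and the 1 of 3 measured genes at least 2-fold lower, against 1.85% of all measured genes. The others measured, Tnnt2 and Trim54, had log2 ratios of -0.46 and -0.33, and the median of -0.46 over 3 compares with -0.01 over all genes. Titin, Ttn, had 78 and 73 reads, and nebulin, Neb, 97 and 53. The skeletal actin gene Acta1 had 3 and 13 reads, 4.34-fold higher with an interval of 1.19 to 23.8.

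Markers of skeletal muscle cells were likewise close to 0. Of the 8 fixed markers, Myod1, Myog and Tnnt3 had 0 reads in each library, and none reached 1 FPKM. Their summed level was 1.25 FPKM in the control and 1.46 FPKM with both factors, most of it the light chain gene Mylpf at 0.797 and 0.916 FPKM. The muscle creatine kinase gene Ckm had 0 and 10 reads, 3.34-fold higher by the floor of 3 reads with a counting interval from 2.245. Acta1, also on this list, had 3 and 13 reads. Des went the other way with 45 and 18 reads, a ratio of 0.401 (0.218 to 0.706), and Ttn had 78 and 73. Of 9 muscle light chain and light chain kinase genes 0 reached 1 FPKM, and Myl1, which encodes the fast-fibre essential light chain, had 0 reads in each library. Leukocyte markers were low too, with 1 of 6 above 1 FPKM, Cd68 at 5.53 and 4.27 FPKM.

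Among smooth and cardiac muscle markers, single genes differed. Of 10 smooth muscle markers 2 were measured. Actg2, enteric smooth muscle actin, was the 1 at least 2-fold higher, against 2.42% of all measured genes. It went from 12 reads and 0.241 FPKM to 187 reads and 3.77 FPKM, 15.6-fold (8.73 to 30.8). Actg2 thus passed the filter of 1 FPKM only through the 2-factor library. The median log2 ratio of the list was 1.12 over the 2 measured genes and 0.03 with no filter. Acta2 had 4 and 25 reads and Lmod1 2 and 7, while Myocd and Cnn1 had 0 in each library. Des went the other way, with 45 reads in the control and 18 with both factors. Myh11 had 5 and 2 reads, Synm 22 and 18, and Tagln 3 and 3. The summed level of this list was 10.6 and 16.8 FPKM, most of it Smtn at 9.785 and 12.24 FPKM. Of 8 cardiac markers 2 were measured, and they went opposite ways. The natriuretic peptide gene Nppb stood at 6.02 and 18.7 FPKM, 3.11-fold higher (2.58 to 3.77). Tnnt2 stood at 3.46 and 2.23 FPKM, 1.55-fold lower (1.39 to 1.73). Myh7 had 4 and 2 reads, Myl2 2 and 0, and Nppa 0 and 2, while Tnni3 and Myl7 had 0 reads. The summed cardiac list was 9.52 and 21.04 FPKM, most of it Nppb. The part of any other cell type in the Myh1 reads was not tested.

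No gene of the myogenic factor list passed the size rule. Of 24 genes 9 were measured and 0 were at least 2-fold different. Over all measured genes 2.42% were higher and 1.85% lower, so 0 of 9 is near those shares. The median log2 ratio of the list was -0.14. The most expressed were Mef2d at 18.7 and 18.6 FPKM and Mef2a at 13.6 and 11.5 FPKM. Myf5 and Pax7, which mark muscle progenitors, had 0 reads in each library, as did Myod1 and Myog. The fusion factor gene Mymk had 0 and 10 reads, 3.34-fold higher by the floor of 3 reads with a counting interval from 2.245. It was the 1 gene of the list with an interval wholly beyond 2-fold. Of all genes with a read, 1.89% were higher and 1.59% lower by that measure.

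Chaperones that fold myosin were present in their general form only. Unc45a, the general myosin chaperone gene, stood at 14.8 and 15.1 FPKM, whereas the muscle form Unc45b had 2 and 0 reads and the muscle methyltransferase gene Smyd1 9 and 2. Hsp90ab1 stood at 1011 and 1204 FPKM and Hsp90aa1 at 310 and 261 FPKM. Of the 6 genes of this list 3 were measured and 0 were 2-fold different. Over all measured genes 2.42% were higher and 1.85% lower, so 0 of 3 is near those shares.

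Partners of nonmuscle myosin stayed within 2-fold. Of 19 light chains and regulators 18 were measured and 0 were at least 2-fold higher or lower, against 2.42% and 1.85% of all measured genes. For a list of this size 0 is near those shares. The median log2 ratio of the list was 0.05. The essential light chain gene Myl6 stood at 108 and 114 FPKM and the regulatory light chain gene Myl12a at 48.8 and 42.7 FPKM. The regulatory light chain gene Myl9 had 0 reads in each library. The kinase gene Rock1, which acts on myosin light chains, had the highest ratio of the list, at 22.6 and 32.8 FPKM, 1.45-fold higher (1.40 to 1.51), while its relative Rock2 stood at 28.1 and 25.7 FPKM.

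Actins, tropomyosins and actinins, the track on which these motors run, had a median log2 ratio of 0.44 over 9 measured of 10. All 9 were above 0, against 5993 of all 12401 measured genes. Actg2 alone was at least 2-fold higher, against 2.42% of measured genes, and it reached 1 FPKM only with both factors. The cytoplasmic actin genes Actb and Actg1 stood at 830 and 112 FPKM in the control and 1204 and 206 FPKM with both factors, 1.45-fold (1.44 to 1.47) and 1.83-fold higher (1.79 to 1.88). Tpm4, a tropomyosin of nonmuscle cells, was 1.63-fold higher (1.59 to 1.67) at 258 FPKM, against 1.07-fold (1.04 to 1.09) for Tpm1. Actin genes are close copies of each other, so their separate values are uncertain.

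**Figure D5:**
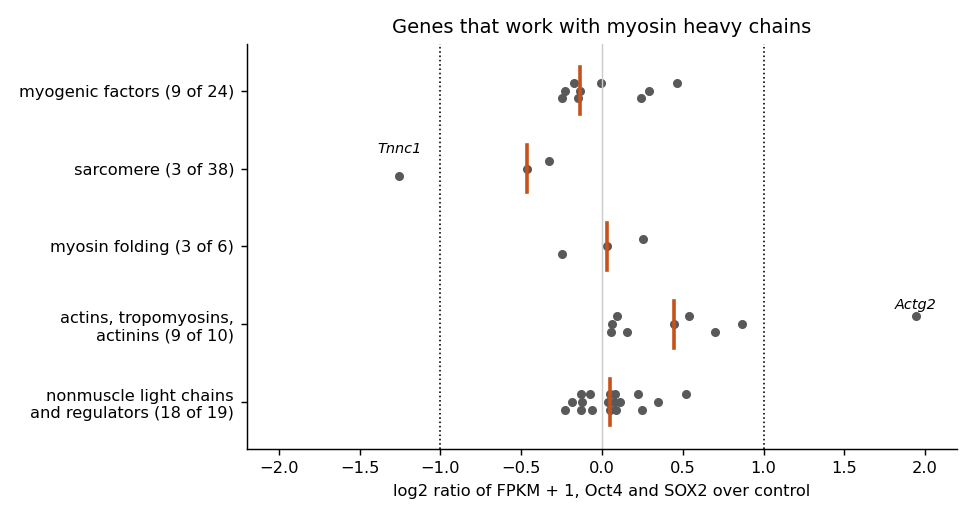
Log2 ratio of FPKM + 1, Oct4 and SOX2 over control, for measured genes (grey points) of 5 lists, with the number measured of the number listed, list medians in orange and dotted lines at 2-fold. Tnnc1 and Actg2 are the 2 genes past 2-fold, and the list medians run from -0.46 (sarcomere) to 0.44 (actins, tropomyosins and actinins).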

How the data were processed

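RNA was measured in 2 CT26 libraries, 1 per group as named in the treatment label, prepared with a NEBNext Ultra kit per the labels' protocols. The authors deposited 1 table of FPKM values for 54532 genes with positions and gene lengths. CASAVA, HISAT2 and featureCounts 1.5.0-p3 on GRCm38 are named in the submitters' processing notes. The sources used here give no annotation release, strand setting or FPKM formula. Of the table's gene identifiers, 54409 were in GENCODE M21 and 98.1% had the same coordinates there, the 9 members among them.

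Multiplied by gene length, 100% of the values were whole numbers of reads within 0.001, once divided by 1 constant per library. This gave the depth: 32262408 in the control and 31521115 with both factors. The totals implied by the deposited FPKM were 0.989 and 1.01 times these. Folds are FPKM ratios with 95% conditional binomial (Clopper-Pearson) intervals, and levels have Poisson intervals. A fold against 0 uses a floor of 3 reads in place of 0, and its lower 95% limit is the interval start. No test was possible with 1 library per group. A gene was measured at 1 FPKM or more in 1 library and sorted at 2-fold on log2(FPKM + 1).

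Members and gene lists were chosen with earlier results of these data known. Named are all members, the other class II heavy chains, protein-coding genes within 300 kb, up to 3 genes per list and direction past 2-fold or else the 2 most expressed, and 5 genes most like Myh1. Other named genes, and the markers named at 0, were chosen after their values were seen. Principal transcripts were aligned globally with Biopython 1.88, and promoters came from RefSeq. Alternatives were pseudocounts of 0.1 and 5 FPKM, no filter, a filter of 5 FPKM, plain totals, totals without the 50 highest genes and centring on the median, plus counting intervals, an alternative added once the data had been seen. The software was scipy 1.17.1 and numpy 2.4.6 for intervals, matplotlib 3.10.9 for figures and pandas 2.3.3 under Python 3.11.15.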

Additional observations from a re-analysis of the deposited data

How the results depend on the processing

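The number of members at least 2-fold higher was 2, became 1 with a pseudocount of 5 FPKM or a filter of 5 FPKM, where Myh2 dropped out, and 4 by counting intervals. It was 2 under the other settings run, and 0 members were lower under all of them. Genes of the partner and marker lists at least 2-fold higher numbered 2, with 1 under a pseudocount of 5 and under a filter of 5 FPKM and 5 by counting intervals. Those lower numbered 1, with 0, 0 and 4 in the same order. Some genes stand in more than 1 list, and no share of them is given. Over all 12401 measured genes 300 were higher (2.42%) and 230 lower (1.85%). These counts became 520 and 459 with a pseudocount of 0.1 and 75 and 56 with 5. With a filter of 5 FPKM they were 145 and 121 of 8235 genes. By counting intervals they were 483 (1.89%) and 406 (1.59%) of 25530 genes with a read. Myh2 had a log2 ratio of 0.32 with a pseudocount of 5, and Myhas 3.36 with 0.1. The other 43 of 45 member ratios recomputed kept their side of 2-fold. The median of all genes was -0.01, and 0.02 with totals without the 50 highest genes. No paired analysis was possible because each group has 1 library, and no library could be left out. Depth limits Myh3, Myh4, Myh8 and Myh13, which have at most 12 reads in a library.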

Other observations

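Unconventional myosins, single-headed or cargo-carrying motors outside class II, were listed by name after the values were seen. Of 25 genes 10 reached 1 FPKM in either library, and 0 were at least 2-fold higher or lower on the log2(FPKM + 1) scale. Over all measured genes 2.42% were higher and 1.85% lower, so 0 of 10 is near those shares. The median log2 ratio was 0.02, within -0.49 to 0.30. The most expressed was Myo1c, which links membranes to actin, at 51.4 and 63.5 FPKM, the control first, 1.24-fold higher (1.204 to 1.27). Myo10, a motor of filopodia, stood at 21.5 and 17.8 FPKM. Myo7a, known from hair cells of the inner ear, had the lowest ratio, from 356 reads and 1.302 FPKM to 174 reads and 0.637 FPKM, a ratio of 0.490 (0.406 to 0.589).

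Among sarcomere genes below 1 FPKM, the M-band gene Myom2 had 120 reads in the control and 19 with both factors, 6.31-fold lower (3.87 to 10.8). Its relative Myom1 had 86 and 38 reads, and the muscle intermediate filament gene Des 45 and 18. In the direction of Myh1, Acta1 had 3 and 13 reads, Ckm 0 and 10, Atp2a1 13 and 22 and Lmod2 1 and 6. All of these genes were chosen after their values were seen.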
